A study of Arabidopsis thaliana with 12 samples.

Results

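The 10 genes described here encode the core enzymes of jasmonate biosynthesis in Arabidopsis thaliana: the lipoxygenases LOX2, LOX3, LOX4 and LOX6, the allene oxide synthase AOS, the allene oxide cyclases AOC1, AOC2, AOC3 and AOC4, and the oxophytodienoate reductase OPR3. They were taken by locus identifier from the deposited count tables, which together list 20780 genes, and all 10 were among the 19714 genes listed for both genotypes. RNA was sequenced from seedlings after 5 days of germination in flasks of liquid medium. The groups, as labelled, were atg5 (SALK_020601C, a line named for the autophagy gene ATG5) in water stress medium (WSM), atg5 in normal medium (NM), wild type (WT, Col-0) in WSM, and WT in NM. All media held 0.5X Murashige medium with 0.5% sucrose, and WSM also held 2.5% glycerol and 0.5% alginic acid. Of 12 labelled samples, 10 had a count column: 3 atg5 WSM, 2 atg5 NM, 2 WT WSM and 3 WT NM libraries, named here by the number in their column. The labels do not say that libraries of a group came from separate cultures, so the p-values reflect the spread among these libraries alone, and that spread may be technical.

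Jasmonates are made from linolenic acid of chloroplast membranes. In the chloroplast, a 13-lipoxygenase adds oxygen to the fatty acid, AOS turns the product into an unstable allene oxide, and a cyclase closes the ring to give oxophytodienoic acid. In the peroxisome, OPR3 reduces that ring, and beta-oxidation then shortens the side chain to jasmonic acid. The isoleucine conjugate of jasmonic acid is the active hormone: it brings JAZ repressors to the receptor COI1 for destruction, which frees MYC2 and related factors. Wounding and other stresses are known to raise transcripts of several of these enzymes, and the enzymes are themselves known jasmonate-responsive genes.

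Library totals were 8928632 to 24022759 counts. The 25 genes in or near rRNA genes took 18.2% to 65.1% of the counts fitted in each, which left the shallowest library, atg5 WSM library 1, with 3147276 other counts. The targeted gene ATG5 had 26.3 to 31.7 CPM (counts scaled to a common library size, with TMM factors) in atg5 WSM, 20.5 to 27.1 in atg5 NM, 20.2 to 23.8 in WT WSM and 27.5 to 30.8 in WT NM. A count over the whole gene does not show an insertion, so it does not check the genotype. PREP1, a peptidase gene, reached 349 counts in atg5 WSM library 1 and 2412 in library 3, but 4 in library 2 of that group, 2 and 0 in the atg5 NM libraries, and 753 to 2668 in the WT libraries. The libraries labelled atg5 were thus not uniform, in a way that differs between the media. The atg5 responses of LOX3, LOX4 and AOC3, and some other values, are also given without atg5 WSM libraries 1 and 3. Shoot markers (7 photosynthesis genes) summed to 13026 to 25939 CPM in atg5 WSM, 10235 to 12321 in atg5 NM, 13641 to 23734 in WT WSM and 19251 to 21597 in WT NM. Root markers (8 genes) summed to 1542 to 2528, 2750 to 4295, 1867 to 2470 and 3089 to 3493 CPM in the same groups. In WSM against NM, 2 of the 8 root markers were lower in atg5 and 3 in WT, while no shoot marker passed the test in either genotype. Of all genes, 2.64% were called lower in atg5 and 2.62% in WT. Seed markers (4 genes) summed to 7.55 to 125 CPM in atg5 WSM, 8.47 to 40.1 in atg5 NM, 1445 to 1924 in WT WSM and 1508 to 2119 in WT NM. Between the genotypes 0 of these 4 were called in either medium. In NM the ratio of atg5 to WT was 0.0118 for CRA1, 0.0121 for CRU3 and 0.0671 for OLEO1, but 1.855 for SESA1. In WSM it was 0.0267 for CRA1, 0.0249 for CRU3, 0.127 for OLEO1 and 0.583 for SESA1. No marker of these lists was at 0 in all libraries of a group. In whole seedlings, fewer cells of a type and less RNA per cell cannot be told apart, and the part of tissue make-up in the results below was not tested.

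WSM was accompanied by higher transcript levels of 3 of the 10 genes, and they were the same 3 in atg5 and in WT: LOX4, LOX3 and AOC3. LOX4 was 48.5-fold higher in atg5 WSM than in atg5 NM and 36.5-fold higher in WT WSM than in WT NM. LOX3 was 9.46-fold higher in atg5 and 14.3-fold higher in WT, and AOC3 was 4.67-fold higher in atg5 and 2.63-fold higher in WT. No member was called lower. The AOC3 call in WT was lost without some single libraries, and the fit of the WT groups alone called 6 members, 5 higher and 1 lower, as given below. A gene was called at a Benjamini-Hochberg adjusted p under 0.05 over all 19714 genes, from edgeR's quasi-likelihood test in 1 fit of the 4 groups, and every adjusted p below comes from that test unless another is named. Against the 3 members called higher in atg5, 5.22% of all genes were called higher and 2.64% lower. Against the 3 called higher in WT, the share of all genes was 3.27% higher and 2.62% lower. The plot of levels in every library shows the 10 genes side by side.

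**Figure D1:**
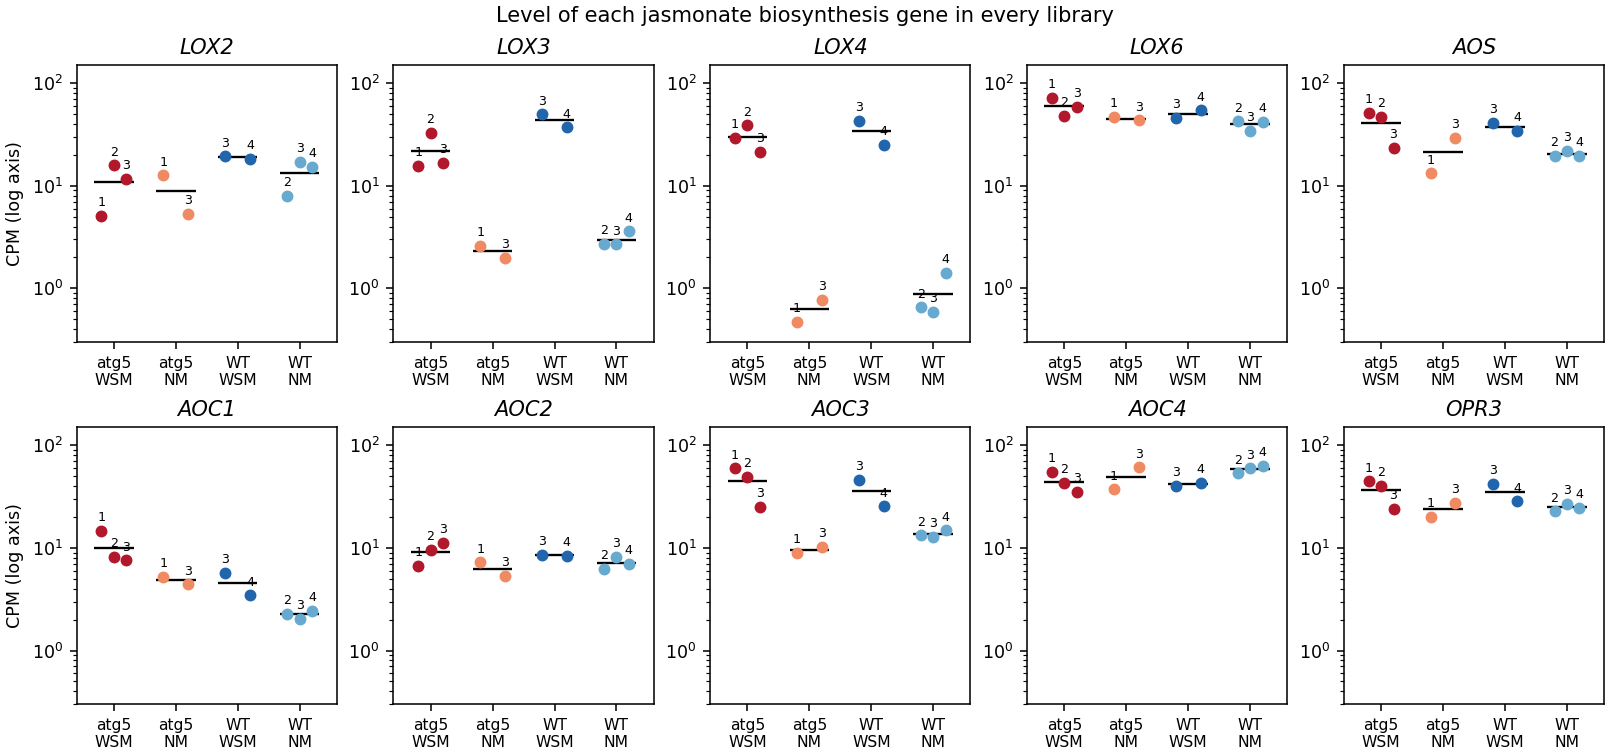
CPM on a log axis for each of the 10 genes in every library, with groups from left to right atg5 WSM, atg5 NM, WT WSM and WT NM. Points are libraries labelled with their column number and bars are group means. The WSM points of LOX3, LOX4 and AOC3 lie above the NM points in both genotypes, and those of LOX2, AOS, AOC2, AOC4 and OPR3 overlap in atg5.

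The 250 bases upstream of the annotated transcript start are shown for the 3 genes called in both genotypes, because they moved with the medium together. They come from the RefSeq TAIR10.1 genome, are written 5′ to 3′ on the gene's strand, and end at the base before the start. Capitals mark matches on either strand to any of the motifs searched, which were the G-box CACGTG, the related T/G-box AACGTG, the GCC box GCCGCC, and the W-box as TTGACC or TTGACT.
LOX3 (chr1:5977073-5977322, plus strand, TAIR10.1): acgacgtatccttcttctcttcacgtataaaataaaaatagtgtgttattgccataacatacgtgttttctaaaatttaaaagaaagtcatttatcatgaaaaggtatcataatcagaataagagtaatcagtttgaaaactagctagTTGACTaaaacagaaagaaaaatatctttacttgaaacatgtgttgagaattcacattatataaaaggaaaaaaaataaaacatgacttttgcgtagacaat
LOX4 (chr1:27308263-27308512, plus strand, TAIR10.1): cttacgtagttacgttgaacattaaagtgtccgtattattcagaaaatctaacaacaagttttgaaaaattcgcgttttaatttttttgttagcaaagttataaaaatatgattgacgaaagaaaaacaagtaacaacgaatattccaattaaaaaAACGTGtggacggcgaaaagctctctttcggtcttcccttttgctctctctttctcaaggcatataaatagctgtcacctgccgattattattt
AOC3 (chr3:9408910-9409159, plus strand, TAIR10.1): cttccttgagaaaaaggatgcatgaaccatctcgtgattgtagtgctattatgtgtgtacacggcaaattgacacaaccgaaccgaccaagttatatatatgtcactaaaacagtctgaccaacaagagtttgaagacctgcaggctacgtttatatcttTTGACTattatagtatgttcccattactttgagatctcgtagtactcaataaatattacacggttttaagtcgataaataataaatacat

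LOX3 and AOC3 each hold TTGACT, the recognition core of WRKY factors, at bases 102 to 97 and 90 to 85 before the start. LOX4 holds AACGTG, known from other jasmonate-responsive promoters as a site for MYC2, at bases 94 to 89. Among all 10 members, TTGACT was present in 3 windows (LOX3, AOS and AOC3) and in 19.1% of 27443 windows of the same length genome-wide. TTGACC was present in LOX2 and LOX6, against 12.2% of all windows, and AACGTG in LOX4 and AOC1, against 7.54%. CACGTG was found in AOS alone, against 6.49%, and GCCGCC in none, against 1.87%. The motifs do not overlap each other in these windows. A match describes letters only, and its absence says nothing about the factor.

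The lipoxygenases carry out the first committed oxygenation, and their 4 genes behaved in different ways. LOX4 (AT1G72520, chromosome 1, 27308513 to 27312756, plus strand), known as a wound- and stress-responsive 13-lipoxygenase, had 29.2, 38.9 and 21.3 CPM in atg5 WSM libraries 1, 2 and 3 and 0.469 and 0.777 CPM in atg5 NM libraries 1 and 3. It had 42.9 and 25.1 CPM in WT WSM libraries 3 and 4 and 0.654, 0.586 and 1.42 CPM in WT NM libraries 2, 3 and 4. Every WSM library was above every NM library, and in NM the gene rested on only 14 and 16 counts in atg5 and 8, 12 and 37 counts in WT. The log2 fold change was 5.60 ± 0.50 (SE) in atg5 (adjusted p = 2.32e-04) and 5.19 ± 0.42 in WT (adjusted p = 1.07e-04). By mean level the groups ran WT WSM, atg5 WSM, WT NM, atg5 NM, and within each medium the ranges of the genotypes overlapped.

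LOX3 (AT1G17420, chromosome 1, 5977323 to 5981521, plus strand), the closest relative of LOX4 and required with it for normal male fertility, had 15.6, 32.9 and 16.7 CPM in atg5 WSM and 2.61 and 1.99 CPM in atg5 NM. It had 49.6 and 37.2 CPM in WT WSM and 2.70, 2.69 and 3.60 CPM in WT NM. The media did not overlap in either genotype, and by mean level the groups ran WT WSM, atg5 WSM, WT NM, atg5 NM. Within each medium the atg5 libraries lay below the WT libraries, as for 13.8% of all genes in WSM and 19% in NM. In WSM the nearest libraries were atg5 library 2, at 32.9 CPM, and WT library 4, at 37.2 CPM. The log2 fold change was 3.24 ± 0.38 (SE) in atg5 (adjusted p = 7.61e-04) and 3.84 ± 0.34 in WT (adjusted p = 1.78e-04).

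The coding sequences of LOX3 and LOX4 were 80.6% identical, with a longest shared run of 24 bases, against 60.4% to 62.8% for every other pair of the 4 lipoxygenases. The libraries were read for 75 cycles from each end, and 0 of the 75-base exon windows of any member recurred elsewhere in the genome. No member's exons overlap those of another gene on either strand, so reads without mismatches were not shared with another gene.

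LOX2 (AT3G45140, chromosome 3, 16525245 to 16529352, plus strand), the lipoxygenase known for most of the jasmonate burst in wounded leaves, did not pass the test. It had 5.12, 15.9 and 11.8 CPM in atg5 WSM, 12.6 and 5.29 CPM in atg5 NM, 19.4 and 18.4 CPM in WT WSM, and 7.93, 17.2 and 15.3 CPM in WT NM. Its libraries overlapped between the media in atg5 and were just apart in WT. WSM over NM gave a log2 fold change of 0.32 ± 0.47 (SE) in atg5 (adjusted p = 0.713) and 0.48 ± 0.45 in WT (adjusted p = 0.563). The sign of the atg5 value rested on single libraries: it was -0.03 without atg5 WSM library 2 and -0.16 without atg5 NM library 3.

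LOX6 (AT1G67560, chromosome 1, 25319804 to 25324581, plus strand), known as a lipoxygenase of roots and of xylem contact cells, had 72.5, 47.7 and 58.7 CPM in atg5 WSM and 47.1 and 43.4 CPM in atg5 NM. In WT it had 46.2 and 54.5 CPM in WSM and 42.6, 34.5 and 42.2 CPM in NM. The WSM libraries were above the NM libraries in both genotypes, by small margins: the log2 fold change was 0.39 ± 0.23 (SE) in atg5 (adjusted p = 0.31) and 0.34 ± 0.22 in WT (adjusted p = 0.389). Neither passed the test. Under the alternative settings of the closing section, the atg5 value of LOX6 ran from 0.08 to 0.52.

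Per kilobase of exon, which allows genes to be compared, the 4 lipoxygenase genes together reached 38.0 ± 4.5 CPM per kb in atg5 WSM (SD, n = 3) and 17.3 ± 2.5 in atg5 NM (n = 2). In WT the sum was 46.1 ± 5.5 in WSM (n = 2) and 17.3 ± 1.4 in NM (n = 3). LOX6 held 47.7% of that sum in atg5 WSM and 79.0% in atg5 NM, and 33.2% in WT WSM and 69.0% in WT NM. LOX4 held 25.3% in atg5 WSM against 1.23% in atg5 NM, and 23.8% in WT WSM against 1.64% in WT NM. For LOX3 the shares were 18.2% in atg5 WSM and 4.31% in atg5 NM, and 30.4% in WT WSM and 5.58% in WT NM. LOX6 was the most abundant of the 4 in each of the 5 NM libraries. LOX3 and LOX4 together made up 36.9% to 55.0% in atg5 WSM and 5.27% to 5.80% in atg5 NM, and 48.0% to 60.4% in WT WSM and 6.38% to 8.60% in WT NM, so the WSM and NM libraries did not overlap.

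**Figure D2:**
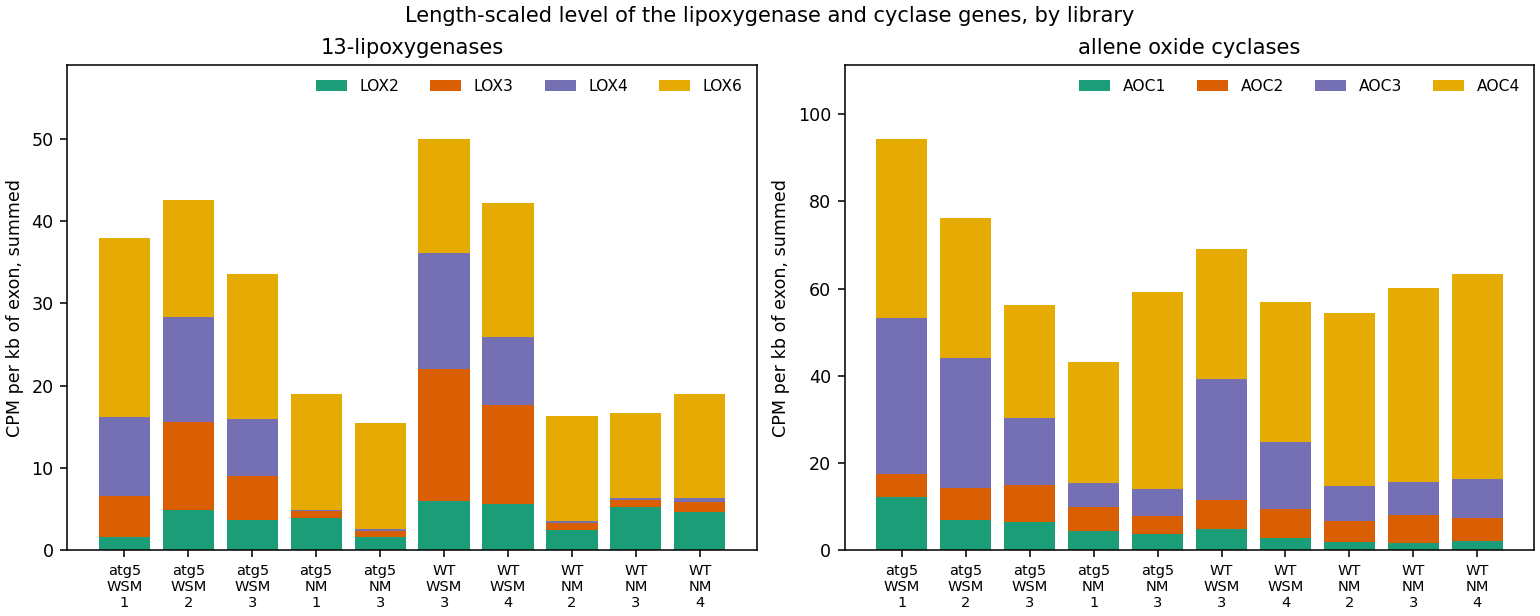
Stacked CPM per kb of exon for the 4 lipoxygenase genes (left) and the 4 allene oxide cyclase genes (right) in each of the 10 libraries, with groups from left to right atg5 WSM, atg5 NM, WT WSM and WT NM. The LOX3 and LOX4 segments are tall in the 5 WSM libraries and short in the 5 NM libraries, and the AOC3 segment is taller in the WSM libraries.

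AOS (AT5G42650, chromosome 5, 17097564 to 17099595, minus strand) is the only allene oxide synthase gene of Arabidopsis, so all flux to jasmonate passes through its product. It had 51.4, 47.0 and 23.4 CPM in atg5 WSM, 13.3 and 29.1 CPM in atg5 NM, 41.0 and 34.3 CPM in WT WSM, and 19.5, 21.8 and 19.7 CPM in WT NM. The media overlapped in atg5, where WSM library 3 lay below NM library 3, and were apart in WT. For AOS the log2 fold change was 0.93 ± 0.37 (SE) in atg5 (adjusted p = 0.146) and 0.89 ± 0.36 in WT (adjusted p = 0.169), and AOS was not called in either. The atg5 value was 0.47 without atg5 NM library 1 and 1.61 without atg5 NM library 3, and not called in either case (adjusted p = 0.482 and 0.0841). In the fit of the WT groups alone its value was 0.89, with an adjusted p of 0.00109.

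The cyclases fix the stereochemistry of the ring and are encoded by 4 genes, of which AOC1, AOC2 and AOC3 lie in tandem on chromosome 3. AOC3 (AT3G25780, 9409160 to 9411090, plus strand) was the only cyclase gene called. Its level was 59.7, 49.6 and 25.2 CPM in atg5 WSM and 8.91 and 10.2 CPM in atg5 NM, and 46.3 and 25.5 CPM in WT WSM and 13.3, 12.8 and 14.9 CPM in WT NM. All WSM libraries were above all NM libraries, and the lowest WSM value in each genotype, near 25 CPM, was well below the highest. The log2 fold change was 2.22 ± 0.37 (SE) in atg5 (adjusted p = 0.00524) and 1.39 ± 0.34 in WT (adjusted p = 0.0371). The WT call was lost without any 1 of 4 libraries: without WT WSM library 3 the value was 0.90 (adjusted p = 0.336), and without WT NM library 2, 3 or 4 the adjusted p was 0.146, 0.137 or 0.0946.

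AOC1 (AT3G25760, 9403779 to 9405338, plus strand), the first gene of the tandem, had 14.6, 8.14 and 7.58 CPM in atg5 WSM, 5.26 and 4.42 in atg5 NM, 5.71 and 3.45 in WT WSM, and 2.29, 2.05 and 2.45 in WT NM. The media did not overlap in either genotype. For AOC1 the log2 fold change was 1.02 ± 0.35 (SE) in atg5 (adjusted p = 0.101) and 1.01 ± 0.35 in WT (adjusted p = 0.12), so AOC1 was not called. In the fit of the WT groups alone its WT value was 1.00, with an adjusted p of 0.0234. Without atg5 WSM library 1 the WT value was 1.01 (adjusted p = 0.0447). With DESeq2 the AOC1 value in atg5 was 1.03 (DESeq2 adjusted p = 0.0492). AOC2 (AT3G25770, 9406669 to 9408071, plus strand), the middle gene, had 6.70, 9.53 and 11.3 CPM in atg5 WSM, 7.24 and 5.34 in atg5 NM, 8.59 and 8.43 in WT WSM, and 6.30, 8.16 and 6.96 in WT NM. Its 10 values ran from 5.34 to 11.3 CPM, with log2 fold changes of 0.56 ± 0.28 (SE) in atg5 and 0.25 ± 0.27 in WT, neither called.

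AOC4 (AT1G13280, chromosome 1, 4547388 to 4548894, plus strand), the cyclase gene outside the tandem, and LOX6 had the highest levels of the 10 genes, with AOC4 at 49.1 and LOX6 at 48.9 CPM as a mean over the 10 libraries and 48.5 and 48.8 CPM as a mean of the 4 group means. AOC4 had 55.0, 43.4 and 35.0 CPM in atg5 WSM, 37.4 and 60.9 in atg5 NM, 40.0 and 43.3 in WT WSM, and 53.3, 59.8 and 63.1 in WT NM. Its log2 fold change was -0.15 ± 0.26 (SE) in atg5 (adjusted p = 0.766) and -0.50 ± 0.26 in WT (adjusted p = 0.287), neither called. The sign of the atg5 value rested on 1 library, as it was 0.24 without atg5 NM library 3. The media overlapped in atg5, whereas both WT WSM libraries were below all WT NM libraries. In the fit of the WT groups alone the value was also -0.50, with an adjusted p of 0.0241.

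Per kilobase of exon, the cyclase genes summed to 75.6 ± 19.0 CPM per kb in atg5 WSM (SD, n = 3) and 51.2 ± 11.4 in atg5 NM (n = 2), and to 63.0 ± 8.6 in WT WSM (n = 2) and 59.4 ± 4.5 in WT NM (n = 3). These sums overlapped between the media in both genotypes. AOC3 took 34.7% of the sum in atg5 WSM against 11.4% in atg5 NM, and 33.7% in WT WSM against 13.9% in WT NM. AOC4 took 44.0% in atg5 WSM against 70.5% in atg5 NM, and 49.9% in WT WSM against 73.7% in WT NM. The lipoxygenase sums, by contrast, were apart between the media in both genotypes. The coding sequences of AOC1 and AOC2 were 90.3% identical, those of AOC3 82.7% and 82.4% identical to AOC1 and AOC2, and AOC4 74.4% to 80.2% identical to the others. The longest run shared by any cyclase pair was 73 bases, between AOC1 and AOC3, so reads of the tandem genes that the aligner placed with mismatches could still have been shared.

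OPR3 (AT2G06050, chromosome 2, 2359114 to 2362375, minus strand), the peroxisomal reductase, had 44.7, 40.6 and 24.1 CPM in atg5 WSM, 20.3 and 27.4 in atg5 NM, 42.2 and 28.5 in WT WSM, and 22.7, 27.1 and 24.7 in WT NM. The media overlapped in atg5, again through WSM library 3, and were apart in WT. Its log2 fold change was 0.61 ± 0.29 (SE) in atg5 (adjusted p = 0.219) and 0.51 ± 0.28 in WT (adjusted p = 0.311), neither called.

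Over the 10 genes, 9 log2 fold changes were positive and 1 negative in each genotype, with a median of 0.77 in atg5 and 0.70 in WT, beside medians over all genes of -0.02 and 0.02. In atg5 that tally depends on single libraries, since LOX2 and AOC4 changed sign without 1 library, as given above. In atg5, 5 members had WSM libraries all above NM (LOX3, LOX4, LOX6, AOC1 and AOC3), as did 16.2% of all genes, and 0 had them all below, against 16.6%. In WT, 9 members had WSM all above NM, as did 28.8% of all genes, and 1 (AOC4) had WSM all below, against 28%. Without atg5 WSM libraries 1 and 3, which leaves 1 atg5 WSM library whose spread is taken from the other groups, the atg5 log2 fold changes were 3.83 for LOX3 (adjusted p = 1.25e-04), 5.99 for LOX4 (adjusted p = 1.51e-04) and 2.38 for AOC3 (adjusted p = 0.00174). In the authors' deposited table for atg5, the adjusted p-values were 2.20e-09 for LOX3, 5.19e-26 for LOX4 and 6.27e-05 for AOC3, and these 3 carried the label for higher in WSM. In the authors' deposited table for WT, only LOX3 and LOX4 carried that label. AOC3 (log2 fold change 1.38, adjusted p = 3.39e-07), AOS (0.88, adjusted p = 2.73e-05), AOC1 (1.00, adjusted p = 0.0258) and AOC4 (-0.50, adjusted p = 0.0136) were labelled as not differing in the same authors' deposited table.

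**Figure D3:**
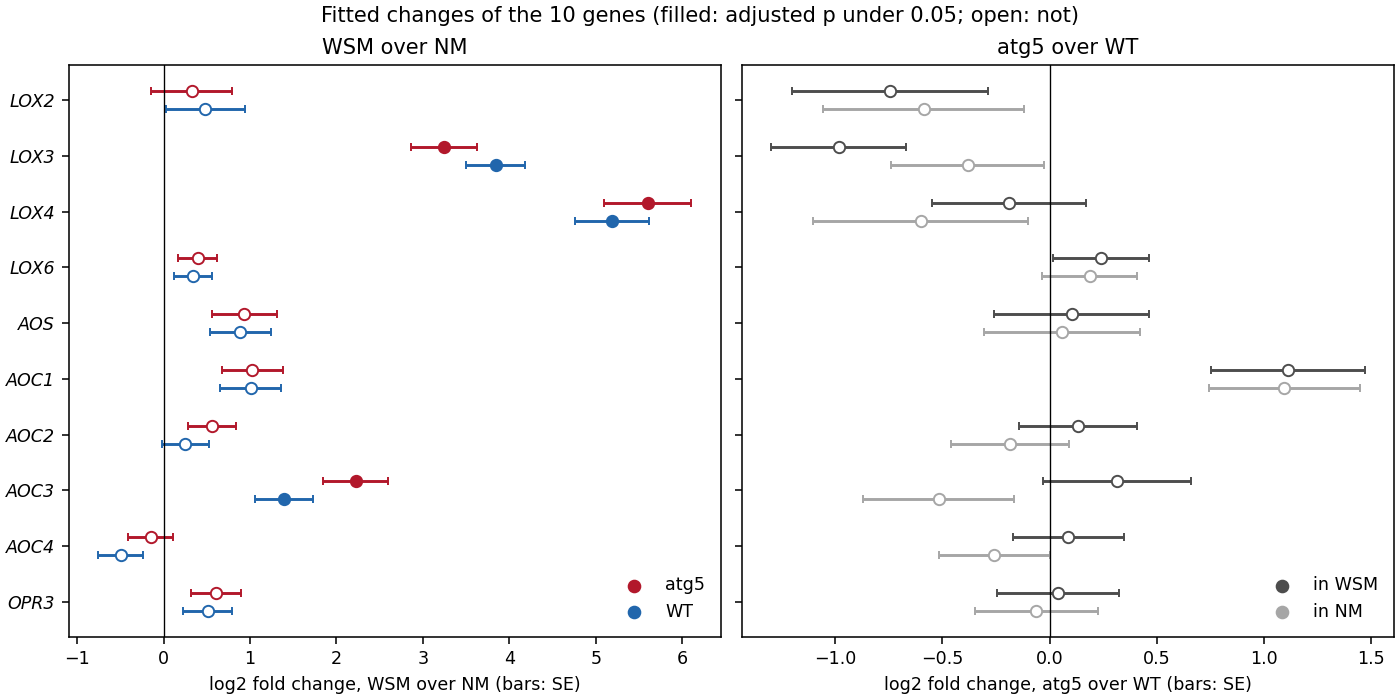
Log2 fold changes with standard errors for the 10 genes, WSM over NM in atg5 and WT (left) and atg5 over WT in WSM and NM (right). Filled points have an adjusted p under 0.05. LOX3, LOX4 and AOC3 are filled on the left in both genotypes, and no point is filled on the right.

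The response to WSM was then compared between the genotypes. No member's response was called different: 0 of 10 members passed the edgeR test of the difference, as did 0% of all genes. With edgeR, 0 of 10 members had an unadjusted p under 0.05, beside 15.1% of all genes, and with DESeq2 0 passed, beside 2.4% of the genes to which it gave an adjusted p. The member estimates furthest from 0 were AOC3, with 2.22 in atg5 and 1.39 in WT and a difference of 0.83 ± 0.49 (SE, adjusted p = 0.441), and LOX3, with 3.24 in atg5 and 3.84 in WT and a difference of -0.60 ± 0.48 (adjusted p = 0.573). For LOX4 the difference was 0.41 ± 0.61 (adjusted p = 0.781). Under the alternative settings of the closing section, the AOC3 difference ran from 0.46 to 1.32. That of LOX3 ran from -1.04 to -0.02, and that of LOX4 from -0.17 to 0.84. The standard errors of 0.32 to 0.65 over the 10 genes leave room for sizeable differences that these libraries could not resolve. The test of the difference uses the same libraries as the tests within each genotype.

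Within each medium, atg5 and WT did not differ by the test for any member. In WSM, 0 of 10 members were called, beside 0.0355% of all genes, and 2 had an unadjusted p under 0.05, beside 12% of all genes. These were LOX3, at 15.6 to 32.9 CPM in atg5 and 37.2 to 49.6 CPM in WT (log2 difference -0.98 ± 0.31, SE, adjusted p = 0.297), and AOC1, at 7.58 to 14.6 CPM in atg5 and 3.45 to 5.71 CPM in WT (1.11 ± 0.36, adjusted p = 0.298). The LOX3 difference depended on the library: it was -1.43 (adjusted p = 0.0341) without atg5 WSM library 2 and -0.40 (adjusted p = 0.77) without atg5 WSM libraries 1 and 3. In NM, 0 of 10 were called, beside 0.147% of all genes, and 1, AOC1, had an unadjusted p under 0.05, beside 13.9% of all genes. AOC1 was at 4.42 to 5.26 CPM in atg5 and 2.05 to 2.45 CPM in WT (1.09 ± 0.35, adjusted p = 0.202). AOC1 was the member whose atg5 libraries lay above all WT libraries in both media, as 13.6% of all genes did in WSM and 18.9% in NM. LOX3 lay below in both media, as did 13.8% of all genes in WSM and 19% in NM. These shares are for each medium alone, and the share of genes apart in both media at once was not computed. Of the others, LOX6 was above and AOC3 below in NM, and LOX2 was below in WSM. With DESeq2, too, 0 members were called in either medium, beside 1.78% of the genes with an adjusted p in WSM and 3.18% in NM.

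Other genes of the pathway were followed in 6 lists of 64 genes, of which 47 were named in the annotation and listed in both tables. Of the perception and signalling genes, 9 of 20 tested were called higher and 1 lower (JAZ4, -1.34 ± 0.31) in atg5, and 10 of 20 higher and 0 lower in WT, with medians of 0.77 and 1.14. Among these, JAZ1, a repressor that jasmonate signalling itself induces, had 222, 213 and 160 CPM in atg5 WSM and 31.2 and 28.6 CPM in atg5 NM (log2 fold change 2.73 ± 0.29, adjusted p = 4.57e-04). In WT, JAZ1 had 222 and 137 CPM in WSM and 23.8, 19.4 and 27.4 CPM in NM (2.93 ± 0.26, adjusted p = 1.78e-04). The lowest WSM value of JAZ1 was well above its highest NM value in each genotype. JAZ10, another repressor, was called higher in atg5 (2.72 ± 0.45, adjusted p = 0.0049) and, just under the threshold, in WT (1.53 ± 0.40, adjusted p = 0.0495). JAZ7 had 8, 129 and 47 counts in atg5 WSM and 0 in both atg5 NM libraries (adjusted p = 0.00438). From counts summed over each group, with a floor of 3 counts for NM, it was at least 50.8-fold higher. That bound leaves out the spread among libraries, and library 2 gave 129 of the 184 summed WSM counts. The list's median is 0.77 with JAZ7 at that bound too. JAZ5 (4.61 ± 0.63, adjusted p = 0.00162) and JAM1, a bHLH repressor of jasmonate responses (1.77 ± 0.30, adjusted p = 0.00558), were called higher in WT, the JAM1 call being lost without WT WSM library 3 (adjusted p = 0.0848). Without that library the JAZ5 value was 3.77, still called (adjusted p = 0.0245). The list's count in WT fell to 2, 4, 3, 3 and 3 without WT WSM library 3, WSM library 4 and NM libraries 2, 3 and 4, and was 3 with the column number as a block. In atg5 it was 5 with the atg5 groups alone, 5 with the atg5 table alone, 4 without atg5 NM library 3 and 6 with the block. All genes called under those settings were higher, so the JAZ4 call was lost in each of them. Genes given above for 1 genotype had fitted changes in the other too. These were 8.13-fold for JAZ5 and 3.70-fold for JAM1 in atg5, and 15.9-fold for JAZ7 in WT. Of the 20 tested, 0 were called for the difference of the responses, as were 0% of all genes.

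The branch list had 2 measured genes, OPR1 and OPR2, cytosolic relatives of OPR3. Of these, OPR1 had 87.9, 287 and 173 CPM in atg5 WSM and 16.1 and 20.6 CPM in atg5 NM (log2 fold change 3.32 ± 0.45, adjusted p = 0.00146), and 166 and 156 CPM in WT WSM and 46.3, 61.2 and 70.3 CPM in WT NM (1.44 ± 0.38, adjusted p = 0.0504, not called). OPR2 rose in atg5 as well (1.48 ± 0.24, adjusted p = 0.00412), with a WT value of 0.42 ± 0.23. The OPR2 call was lost with only the atg5 groups fitted (adjusted p = 0.0672) and with the atg5 table alone (adjusted p = 0.0733), and OPR1 stood at 3.97, still called, without atg5 WSM libraries 1 and 3. The genes are neighbours whose exons overlap on the same strand, over 10.2% of OPR1 and 13.4% of OPR2, so their counts may be partly shared. Neither difference of responses passed the test (1.88 ± 0.57, adjusted p = 0.22 for OPR1, and 1.06 ± 0.33, adjusted p = 0.226 for OPR2).

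Of the 10 peroxisomal genes, 1 was higher and 1 lower in atg5, and 1 higher and 0 lower in WT, with medians of -0.16 and -0.19. OPCL1, the ligase that activates the OPR3 product with coenzyme A, had 32.9, 58.1 and 29.2 CPM in atg5 WSM and 9.65 and 10.5 CPM in atg5 NM (2.00 ± 0.39, adjusted p = 0.0109), and 61.1 and 45.1 CPM in WT WSM and 4.01, 9.09 and 8.07 CPM in WT NM (2.90 ± 0.36, adjusted p = 9.99e-04). The atg5 call for OPCL1 was lost without atg5 NM library 1 or 3 (adjusted p = 0.0523 and 0.0828) and with the column number as a block (adjusted p = 0.0819). MFP2, a multifunctional beta-oxidation enzyme, was lower in atg5 (-1.28 ± 0.30, adjusted p = 0.0266), a call lost without atg5 WSM library 3, atg5 NM library 3 or WT NM library 4 and without atg5 WSM libraries 1 and 3. The MFP2 call was also lost with only the atg5 groups fitted (adjusted p = 0.159), with the atg5 table alone (adjusted p = 0.166) and with the block (adjusted p = 0.102). In the conjugation and turnover list 1 of 7 was higher and 1 lower in atg5, and 1 higher and 0 lower in WT, with medians of 0.28 and 0.31.

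CYP94B3, which oxidises the active conjugate and so inactivates it, had 31.1, 39.1 and 39.5 CPM in atg5 WSM and 1.14 and 1.65 CPM in atg5 NM (4.73 ± 0.33, adjusted p = 6.45e-05). In WT it had 22.5 and 30.3 CPM in WSM and 1.06, 1.17 and 1.88 CPM in NM (4.23 ± 0.29, adjusted p = 5.79e-05). JAR1, the enzyme that forms the isoleucine conjugate, was lower in atg5 (-0.85 ± 0.21, adjusted p = 0.0298). The JAR1 call was lost without atg5 WSM library 3, atg5 NM library 3 or any WT NM library and without atg5 WSM libraries 1 and 3. It was also lost with only the atg5 groups fitted (adjusted p = 0.258), with the atg5 table alone (adjusted p = 0.268) and with the block (adjusted p = 0.134). Its WT value was -0.39 ± 0.21, not called.

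The supply list, holding desaturases that make linolenic acid and the 9-lipoxygenases LOX1 and LOX5, had 0 of 5 called in atg5 and 0 of 5 in WT, with medians of 0.25 and 0.27. Of 10 jasmonate-responsive targets in the last list, only 3 were listed for both genotypes and tested. Among these, 1 was higher and 0 lower in atg5, and 1 higher and 1 lower in WT, with medians of 0.16 and -0.09. VSP2, one of the 3, was 0.82-fold in atg5 and 0.94-fold in WT, and was called in neither. TAT3, a tyrosine aminotransferase used as a jasmonate marker, was the one higher in atg5 (4.63 ± 0.91, adjusted p = 0.012) and in WT (5.02 ± 0.86, adjusted p = 0.00653), and its atg5 call was lost without atg5 NM library 1 (3.91, adjusted p = 0.0609), with the atg5 table alone (adjusted p = 0.0529) and with the block (adjusted p = 0.0563). The TAT3 value in atg5 was 3.72 without atg5 WSM library 1 and 5.78 without atg5 NM library 3, and in WT it was 6.28 without WT NM library 4, all still called. JR1, a jacalin-like lectin, was lower in WT (-0.92 ± 0.24, adjusted p = 0.0499). That call was lost without any 1 of the WT libraries, with RLE size factors (adjusted p = 0.055), without the rRNA-region genes (adjusted p = 0.0506), without the 2 libraries richest in their counts (adjusted p = 0.139) and with the block (adjusted p = 0.229), and 23.8% of the exonic bases of JR1 lie opposite another gene. MYC2, the central jasmonate transcription factor, was among the called signalling genes, but 98.5% of its exonic bases lie opposite another gene and its counts are therefore uncertain.

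**Figure D4:**
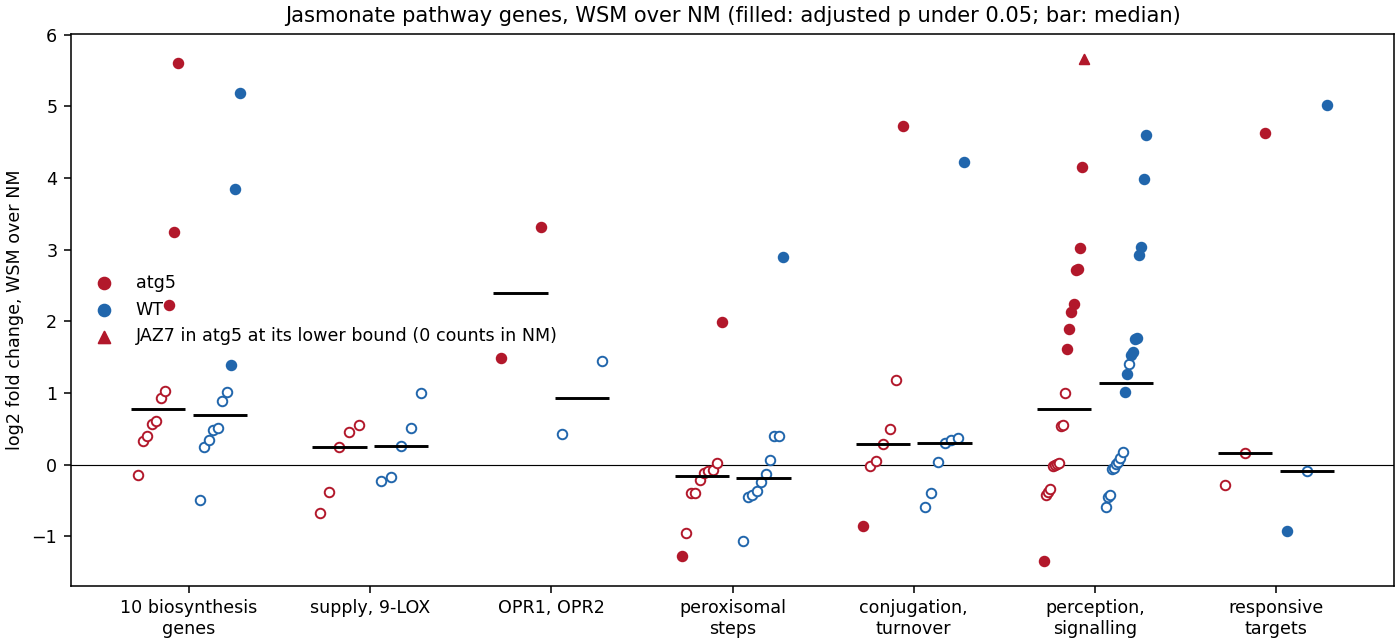
Log2 fold changes, WSM over NM, of the 10 genes and of the measured genes of the 6 other lists, atg5 to the left of WT in each list. Filled points have an adjusted p under 0.05, black bars are medians, and the triangle is the lower bound for JAZ7 in atg5 from summed counts. The signalling list has the most filled points, 10 in each genotype.

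Genes with a pattern like that of a member were ranked by Pearson correlation of log2(CPM + 1) over the 10 libraries, among 13889 other genes averaging 5 CPM or more, as a description only, since libraries of a medium share its difference. For LOX4, the member with the largest change in WT, the closest were WRKY40 (0.998), AT2G30020 (0.996), SZF1 (0.996), AT1G07135 (0.995) and PP2-B13 (0.994). WRKY40, a stress-induced transcription factor, averaged 89.8 CPM in atg5 WSM and 1.303 in atg5 NM, and 92.9 in WT WSM and 1.69 in WT NM. For AOC4, taken for its mean over the 10 libraries, just above that of LOX6, the closest were CASP4 (0.958), MLP34 (0.923), ROC1 (0.921), AT3G18410 (0.917) and AT3G04230 (0.915). CASP4, a membrane protein of the root endodermis, averaged 4.85 CPM in atg5 WSM and 7.79 in atg5 NM, and 3.80 in WT WSM and 9.49 in WT NM. AOC4 and CASP4 were thus both at their highest mean in WT NM.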

How the data were processed

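Per the labels' protocols, stranded mRNA libraries were read for 75 cycles from each end. The tools named in the submitters' processing notes are bcl2fastq, Bowtie2, bedtools and DESeq2, with the TAIR10 genome; no source used here gives their versions, their settings or whether counting used strand. For each genotype the authors deposited 1 table of raw counts by gene and library, which also holds, per the file headers, their own log2 fold changes, standard errors and adjusted p-values. A further 10 columns of normalized values were left unused. Columns carry other numbers than the sample titles, so they were matched to groups only.

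All 19714 genes in both tables were fitted together with edgeR 4.0.16 (limma 3.58.1, R 4.3.3; TMM, quasi-likelihood), 4 groups and 10 libraries. The fit had 6 residual degrees of freedom, and the biological coefficient of variation was 28.2%. filterByExpr removed 0 genes. The SE is the log2 fold change divided by the square root of F. Depth was 8928632 to 24022759 counts, and genes with few counts, such as LOX4 in NM, are limited by counting error as well. The code was tested on simulated counts. DESeq2 1.42.0 and other alternatives are given in the closing section; those for the pathway lists were chosen after seeing the data.

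The members, lists, motifs and tests were chosen with earlier results of these data known. All 10 members are named. From each pathway list and contrast, at most 3 called genes with the smallest adjusted p are named. MYC2, JAZ4 and VSP2 were added after their values were seen. Symbols, positions, exon lengths and sequences come from RefSeq TAIR10.1; the tables hold no coordinates.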

Additional observations from a re-analysis of the deposited data

How the results depend on the processing

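The members' 50 values were recomputed under up to 19 settings, giving 910 values: 894 kept their side of the threshold, 6 lost a call, 10 gained one and 0 reversed a called value. Of the 894, 53 had the opposite sign, none of them called: 0 in WT, 3 in atg5, 28 for the difference, 5 in NM and 17 in WSM. LOX3 and LOX4 kept their calls in both genotypes, and AOC3 in atg5, under all 19, with adjusted p up to 0.00492 (LOX3, WT), 0.00492 (LOX4, WT), 0.0155 (LOX3, atg5), 0.00728 (LOX4, atg5) and 0.0491 (AOC3, atg5). The 6 lost calls were AOC3 in WT, where its value ran from 0.90 to 1.76; beside those given above, it was lost (adjusted p = 0.0741) when atg5 WSM library 1 and WT NM library 2, those with the most rRNA-region counts, were left out. With only the groups compared, or each table alone, 6 members were called in WT (5 higher, 1 lower), AOS, AOC1 and AOC4 being added. Leaving out 1 library gave 2 to 4 members in WT, 3 in atg5, 0 for the difference and in NM, and 0 to 1 in WSM. Counts over all genes moved more. DESeq2 called 2171 in WT, 2659 in atg5, 408 for the difference, 590 in NM and 343 in WSM, against 1161, 1549, 0, 29 and 7. Fits of only the groups compared gave 5786, 320, 240 and 0 for WT, atg5, NM and WSM, and each table alone 5833 and 303. Leaving out atg5 WSM libraries 1 and 3 gave 2813 in WT, 494 in NM and 61 in WSM, and leaving out those with the most rRNA-region counts gave 36 in WSM. Leaving out 1 library gave 272 to 2286, 467 to 2771, 0 to 53, 2 to 241 and 0 to 197. The cause was not tested. LOX4 in NM rests on 8 to 37 counts a library.

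The column number as a replicate block gave 360 genes in WT, 538 in atg5, and 0 in NM and in WSM, and AOC3 in WT was no longer called (1.44, adjusted p = 0.146). Deviations of libraries with the same number correlated at -0.294 to 0.179, so the numbers were not taken to pair the samples.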
